A study of Saccharomyces cerevisiae with 16 samples.

Results

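How densely ribosome footprints lay on each transcript was compared across the genes of wild-type budding yeast, *Saccharomyces cerevisiae*. Only the wild-type libraries of the series were used: 3 of ribosome footprints and 2 of mRNA, 5 libraries of 16 in all. The strain was BY4741, a haploid laboratory strain of mating type a, grown in rich medium (YPD) to an optical density of 0.5 in cultures of 500 ml. Cells were ground frozen and taken up in buffer with cycloheximide, which holds ribosomes in place on mRNA. Part of each lysate was digested with RNase I, and the fragments that ribosomes shielded were recovered from the monosome peak of a sucrose gradient. In parallel, poly(A) mRNA was selected and broken by alkali. The other 11 libraries came from strains of the same background that lack CAN1, RPL22A or TOR1, and they are used here only as a second reading of genes named in wild type.

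Translational efficiency is the footprint level of a gene divided by its mRNA level. Both levels are per kilobase, so a high ratio means many ribosomes per length of transcript, not per whole transcript. Ribosomes may start often or move slowly, and footprints alone do not tell these apart. In yeast the initiation step is usually limiting, and it depends on the leader of the mRNA, on upstream reading frames and on how readily the cap-binding complex recruits the small ribosomal subunit. The ratio is relative, since each assay is scaled to its own total. All efficiencies below are therefore log2 values set against the median row, which stands at 0, and a log2 efficiency of 1 is 2-fold above it.

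The deposited tables hold 5574 rows, most of them 1 open reading frame each, and 116 that merge 335 near-identical genes. Library totals recovered from the steps of the values were, in 1e6 reads, 8.56, 5.16 and 2.52 for footprints and 7.65 and 26.6 for mRNA. The listed rows held between 81.0 and 81.3% of footprint reads but 60.0 and 56.6% of mRNA reads. Of all rows, 4326 reached 5 RPKM (reads per kilobase per 1e6 reads) and 4 reads per 1e6, as the geometric mean of the assays, and were tested. The label of the strain was checked by its genes. STE2, the receptor for alpha factor that only cells of mating type a make, lay between 191 and 233 RPKM in footprints, while STE3, the receptor of the opposite mating type, lay at 0.322 RPKM or less in footprints and 1.41 or less in mRNA. LEU2, URA3 and MET17, which BY4741 lacks, were listed at 0 in all 5 libraries. Those tables also list MFA1 and MFA2, the precursors of a-factor, at 0, with listed lengths of 11 and 17 bases. Whether the replicates came from separate cultures is not said in the labels, and the p-values below reflect the scatter of these libraries alone, which may be technical.

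Sequence around the start codon of the 5 genes highest and the 5 lowest in efficiency is shown first, because the base 3 before the ATG is the best known feature of a yeast start site, where an A is preferred. Each line reads 5′ to 3′ on the coding strand of RefSeq's R64 assembly, with 12 bases of leader, and capitals mark the base at −3 and the start codon.
DED1 (XV:722899-722916, plus strand): gcatttcatAttATGgct
DHH1 (IV:171925-171942, minus strand): aaaatagtaGtaATGggt
SRO9 (III:58673-58690, minus strand): tctctgcccAcgATGtct
RPL39 (X:75921-75938, plus strand): agatagatcAacATGgct
CHC1 (VII:107499-107516, minus strand): aagttctaaCcaATGagt
YCR024C-B (III:162860-162877, minus strand): aattagactActATGtgt
MTC7 (V:86167-86184, plus strand): catgggataTaaATGaaa
HAC1 (VI:75167-75184, plus strand): acaaccgccActATGgaa
RPS30B (XV:678788-678805, minus strand): aaattatacAaaATGgta
GCN4 (V:139758-139775, minus strand): aatacaaatAaaATGtcc
In both sets the base at −3 was mostly A, and it did not separate these extremes. Among the 15 highest named genes 9 had A there and among the 15 lowest 8 did, against 2656 of 4248 single-gene rows tested, or 62.5%. Over the whole range the share with A was 55.2% in the lowest quintile of efficiency and 60.7, 66.0, 64.1 and 66.7% in the following quintiles, given as a description without a test.

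Efficiency spread widely in wild type. Its standard deviation over the 4326 rows was 0.99 log2 units, the middle 50% of rows spanned 1.23 units (2.35-fold), and the 5th to 95th percentile ran from −1.44 to 1.69 (8.73-fold). By limma with Benjamini-Hochberg adjustment, 1348 rows (31.2%) lay above the median row and 1313 (30.4%) below it at an adjusted p under 0.05. With a 2-fold difference required in addition, 664 (15.3%) lay above and 535 (12.4%) below. Centred footprint and mRNA values of the 5 libraries did not overlap for 3237 rows (74.8%). The 6 pairings of a footprint with an mRNA library gave much the same order of genes: pairings with no library in common had Spearman correlations between 0.863 and 0.902 across genes. Footprint replicates correlated at 0.976 to 0.986, the mRNA replicates at 0.981, and footprints with mRNA at 0.804 to 0.842. Genes are not independent replicates, and these correlations describe the tables only. What RNase I, poly(A) selection and fragment size selection do to 1 assay and not the other cannot be told apart from efficiency in this design.

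**Figure D1:**
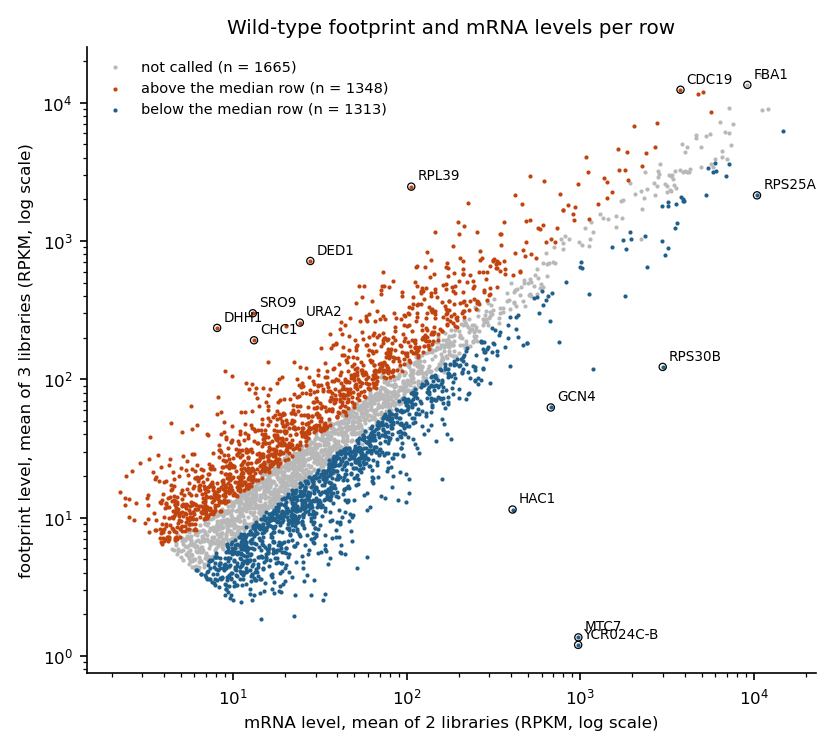
Footprint level (mean of 3 libraries, RPKM, log scale) against mRNA level (mean of 2 libraries, RPKM, log scale) for the 4326 rows tested, each point a row, orange where called above the median efficiency (1348), blue where called below it (1313), grey where not called. DED1, DHH1, SRO9 and RPL39 stand far above the band, and HAC1, GCN4, RPS30B, MTC7 and YCR024C-B far below it.

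The 15 highest efficiencies belonged to genes whose mRNA means ran from 3.33 to 145 RPKM, and whose footprint means ran from 38 to 2471 RPKM. Over all single-gene rows tested the median mRNA level was 27.7 RPKM. DED1, a DEAD-box RNA helicase that unwinds mRNA leaders for the scanning ribosome, had 655, 759 and 736 RPKM in the footprint libraries and 38.8 and 17.0 RPKM in the mRNA libraries. Every footprint value was over 10 times every mRNA value, while the mRNA replicates differed from each other more than the footprint replicates did. Its efficiency was 4.79 ± 0.28 (SE), 27.6-fold above the median row (limma adjusted p 8.98e-06). DHH1, a DEAD-box helicase of mRNA decay and translational repression, had 242, 233 and 231 RPKM of footprints on 9.02 and 7.2 RPKM of mRNA, an efficiency of 4.75 ± 0.14 (adjusted p 8.03e-07). SRO9, an RNA-binding protein of the La-motif family that associates with ribosomes, had 307, 292 and 302 RPKM of footprints on 14.5 and 11.5 RPKM of mRNA, at 4.48 ± 0.14 (adjusted p 8.03e-07). The 3 leading genes thus all encode RNA-binding proteins that act on mRNA.

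Genes of vesicle coats and endocytosis made up another share of the top 15. CHC1, the clathrin heavy chain, had 173, 189 and 212 RPKM of footprints and 14.3 and 12.1 RPKM of mRNA, an efficiency of 3.80 ± 0.15. SEC31, a subunit of the COPII coat that buds vesicles from the endoplasmic reticulum, stood at 3.34 ± 0.15, and SEC16, the scaffold on which that coat assembles, at 3.22 ± 0.15. PAN1 and EDE1, scaffolds of early endocytic sites, had efficiencies of 3.33 ± 0.17 and 3.09 ± 0.15. These 5 genes are all long, with listed lengths from 3722 to 6488 bases, and all carried under 15 RPKM of mRNA in either library. Low mRNA is itself part of the high ratio by which they were chosen. SEC16, at 3.05 and 3.60 RPKM of mRNA, passed the filter only through its footprints.

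The other members of the top group had varied roles. CAR2, ornithine transaminase of arginine breakdown, had 82.5, 137 and 125 RPKM of footprints on 10.2 and 7.92 RPKM of mRNA, an efficiency of 3.55 ± 0.23. URA2, the large bifunctional enzyme that opens pyrimidine synthesis, stood at 3.41 ± 0.16 and DEF1, which promotes the degradation of stalled RNA polymerase II, at 3.59 ± 0.14. SCW4, a cell wall protein related to glucanases, reached 3.11 ± 0.23, SIM1, a wall protein of the SUN family, 3.21 ± 0.19, and PRY3, a secreted wall protein that binds sterols, 3.22 ± 0.18. The highest of these by footprint level was SCW4, at 1164, 1220 and 1114 RPKM.

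RPL39, a very small protein of the large ribosomal subunit, was the exception to length among the highest. Its listed length is 56 bases, and its footprint values of 4268, 2011 and 1135 RPKM were highest in the deepest library and lowest in the shallowest. Its mRNA values were 109 and 104 RPKM, below every footprint value, and its efficiency was 4.36 ± 0.44 (adjusted p 7.54e-05). Over so short a window the level rests on a small stretch of the gene, and whether that part of the gene stands for the rest was not tested. The other rows with a listed length under 100 bases numbered 16 among those tested and went both ways: of the 17 in all, 5 were called above and 7 below.

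The lowest efficiencies included 2 rows that start close behind another gene, 2 transcripts known to be held back, and a pair of ribosomal protein genes. YCR024C-B, a small protein of unknown role, had 1161 and 786 RPKM of mRNA but 1.27, 0 and 2.33 RPKM of footprints, an efficiency of −8.89 ± 0.43 (adjusted p 5.54e-06). It starts 79 bases downstream of PMP1 on the same strand, and PMP1, a small regulator of the plasma membrane proton pump, is itself listed at 0 with a listed length of 23 bases. MTC7, also of unknown molecular role, had 869 and 1084 RPKM of mRNA and 0.398, 1.25 and 2.44 RPKM of footprints, at −8.74 ± 0.33. It starts 29 bases downstream of HYP2 on the same strand. HYP2 encodes the translation factor eIF5A and is listed only in 1 row with its near copy ANB1, at 1464 and 761 RPKM of mRNA and 2585 to 3618 RPKM of footprints. For both rows every mRNA value lay far above every footprint value, and whether their mRNA reads belong to the neighbouring transcript was not tested.

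HAC1, the next in order, and GCN4, the fifth after RPS30B, both encode transcription factors whose translation is known to be held back in unstressed cells. HAC1 drives the unfolded protein response, and its mRNA carries an intron that is removed only under stress and that blocks translation while it stays. HAC1 had 557 and 259 RPKM of mRNA and 12.1, 5.73 and 16.5 RPKM of footprints, an efficiency of −5.00 ± 0.42 (adjusted p 2.84e-05). Its listed length, 661 bases, equals that of the first coding part, before the intron (VI:75179-75839). The intron runs over 252 bases (VI:75840-76091, plus strand, R64), and its ends are shown with exon bases in capitals because they mark where the blocking segment begins and stops.
HAC1 first junction: CGTAATCCAGccgtgattacgatg
HAC1 second junction: gcttgtactgtccgAAGCGCAGTC
GCN4, the activator of amino acid synthesis genes, had 764 and 590 RPKM of mRNA and 50.8, 88.2 and 48.6 RPKM of footprints. The groups did not overlap, and the efficiency was −3.41 ± 0.25 (adjusted p 1.72e-05). Its leader holds 4 short upstream reading frames that are known to keep ribosomes from the main start codon in fed cells. A search of the 600 bases before the GCN4 start codon for ATG codons with a stop in the same frame found exactly these 4, given here with the start codon in capitals (chromosome V, minus strand, R64).
GCN4 uORF1, 361 bases before the start codon: ATGgcttgctaa
GCN4 uORF2, 293 bases before: ATGtgttaa
GCN4 uORF3, 176 bases before: ATGtacccgtag
GCN4 uORF4, 151 bases before: ATGtttccgtaa
Each frame holds 2 or 3 codons before its stop.

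RPS30B and RPS30A, a pair of genes for 1 small-subunit ribosomal protein, were the lowest of the ribosomal genes. RPS30B had 3400 and 2576 RPKM of mRNA and 206, 82.3 and 80.5 RPKM of footprints, at −4.68 ± 0.37 (adjusted p 2.31e-05), and RPS30A stood at −3.23 ± 0.29. Both have a listed length of 92 bases. The remaining 9 named low rows ran from −3.33 (SPR6, a gene expressed in sporulation) to −2.81 (YJR112W-A). They included THG1, the essential enzyme that adds a guanine to histidine tRNA, at −2.94 ± 0.22, with 198 and 123 RPKM of mRNA and 22.7, 17.9 and 16.5 RPKM of footprints. They also included REV7, a subunit of translesion DNA polymerase zeta, at −3.18 ± 0.21, PFA5, a palmitoyltransferase, at −2.96 ± 0.19, LDB18, a subunit of dynactin, at −3.27 ± 0.21 and ATG5, which helps conjugate Atg8 in autophagy, at −2.82 ± 0.26. Apart from THG1 and YJR112W-A these 9 rows carried under 8 RPKM of footprints in every library, so few footprint reads stand behind each value. SPR6, YGR201C, REV7, PFA5 and TLD1 had footprint means under 5 RPKM and passed the filter only through their mRNA. The same holds for YCR024C-B and MTC7. High mRNA is itself part of the low ratio by which these rows were chosen.

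The 2 sets of 15 also differed in length, but the rules of their choice bear on length. A low row had to reach 20 RPKM of mRNA to be named, and a high row 20 RPKM of footprints. Tested rows of 2000 bases or more had a median mRNA level of 11.9 RPKM, against 76.9 RPKM under 500 bases. Most long rows thus could not enter the low set. The median footprint level of the long rows was 16.7 RPKM, so this minimum kept long rows out of the high set too. The filter's minimum of reads asks a higher RPKM of a short row than of a long one. How far these rules shape the difference in length was not tested. The highest had a median listed length of 2117 bases, with 8 of 15 at 2000 or more, while the lowest had a median of 578 bases, with 14 of 15 under 1000. A same-strand gene ended within 300 bases upstream of 4 of the lowest and of none of the highest, against 644 of 4246 single-gene rows with a distance to compare. Over all single-gene rows that share was 20.6% in the lowest quintile of efficiency and 11.4% in the highest, and intron-bearing genes made up 5.88 and 2.47%. These are counts with no test.

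The same 30 genes were read in libraries that had no part in choosing them. In the can1, rpl22a and tor1 deletion strains, each set against its own mRNA, all 15 high genes stayed above 1 and all 15 low genes below −1. DED1 stood at 5.50, 4.90 and 4.65 in those strains and DHH1 at 4.51, 3.70 and 5.01. HAC1 stood at −3.77, −6.12 and −4.83 and GCN4 at −2.50, −3.45 and −3.61. Across all 4326 rows the efficiencies of wild type correlated at 0.959 (Spearman) with can1, 0.852 with rpl22a and 0.95 with tor1, where rpl22a and tor1 rest on 1 mRNA library each.

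**Figure D2:**
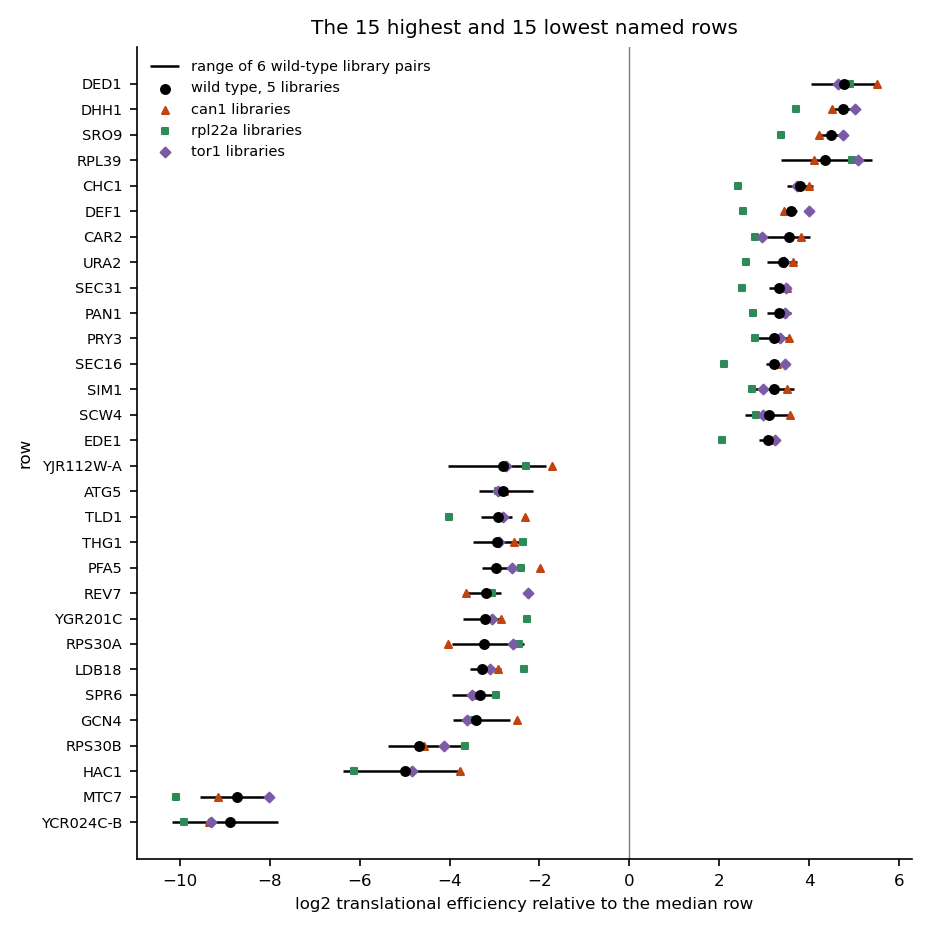
Log2 translational efficiency relative to the median row (x axis) of the 15 highest and 15 lowest named genes (y axis). Black points are wild type, black lines the range over its 6 library pairs, and coloured marks the can1, rpl22a and tor1 libraries. Every mark of the high genes lies above 1 and every mark of the low genes below −1.

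Efficiency followed the listed length. Rows under 500 bases had a median of −0.35 (629 rows) and those from 500 to under 1000 bases −0.32 (1225), followed by −0.03 (996), 0.25 (596) and, at 2000 bases or more, 0.63 (880). Of the longest group 519 rows were called above and 87 below, and of the shortest 89 above and 261 below. The 121 rows of 4000 bases or more had a median of 0.93, with 90 above and 4 below. The correlation of efficiency with length across rows was 0.39 (Spearman), and it lay at 0.30 for both pairings with footprint replicate 1, 0.38 for those with replicate 2, and 0.43 and 0.44 for those with replicate 3. Because the same length divides both assays, it cancels from the ratio. How fragment recovery along long and short transcripts differs between the assays was not tested. Within quintiles of mRNA level the correlation was 0.23, 0.32, 0.36, 0.46 and 0.46 from the lowest to the highest. In the most abundant quintile the 35 rows of 2000 bases or more had a median of 1.34 and the 276 rows under 500 bases −0.30. In the least abundant quintile the order was opposite, at 0.62 for 418 long rows and 0.88 for the 11 short ones. The filter also set a minimum of reads, which asks a higher RPKM of a short row than of a long one. Among short rows with so little mRNA it thus favoured those with high footprints. The order in this quintile therefore does not show how efficiency goes with length there.

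Efficiency followed mRNA level little. To keep the noise of 1 mRNA library out of both axes, level was read from replicate 1 and efficiency from replicate 2. The correlation was then −0.08 (Spearman), or −0.15 with the mRNA replicates swapped. The value of −0.08 changed sign, to 0.06, with no filter on low rows and, to 0.14, with the length trend removed. The lowest decile of rows by level, up to 7.41 RPKM, had a median efficiency of 0.64, and the other 9 deciles lay between −0.29 and 0.10. That lowest decile was also the one with the longest rows, at a median of 2150 bases. A row with little mRNA passed the filter only if it had footprints enough, so the filter itself favours high efficiency there.

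Codon adaptation, the likeness of a gene's codons to those of the cytosolic ribosomal protein genes, went with efficiency. By quintiles of the index the medians were −0.47, −0.25, 0.02, 0.22 and 0.56. In the lowest quintile 108 rows were called above and 422 below, and in the highest 466 above and 107 below. The correlation was 0.40 (Spearman) over the 4248 single-gene rows tested. Within the 5 length groups it was 0.27, 0.35, 0.45, 0.49 and 0.49 from the shortest to the longest. Merged rows were left out of these values and of the quintiles.

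**Figure D3:**
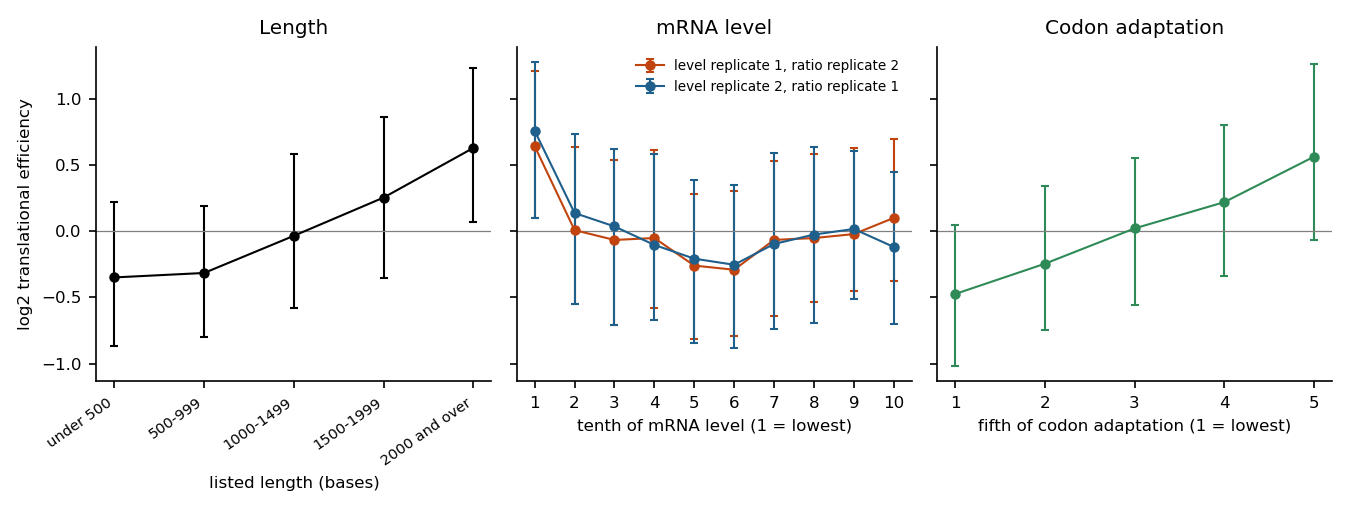
Median log2 translational efficiency (points) with the 25th to 75th percentile of rows (bars) by listed length in bases, by decile of mRNA level and by quintile of codon adaptation. Medians climb from −0.35 to 0.63 with length and from −0.47 to 0.56 with codon adaptation, and by level only the lowest decile stands apart.

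Functional groups were described with 31 gene lists, 29 of which had at least 5 rows tested. Of these, 24 had a median above the median row and 5 below it, and 19 lay above and 3 below it in every library pair. The lists together held 889 tested rows, of which 390 were called above and 154 below, so the listed functions are weighted toward well-translated genes. Each median is to be read against 0 for all rows, and each count against the 31.2 and 30.4% called in each direction over all rows.

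**Figure D4:**
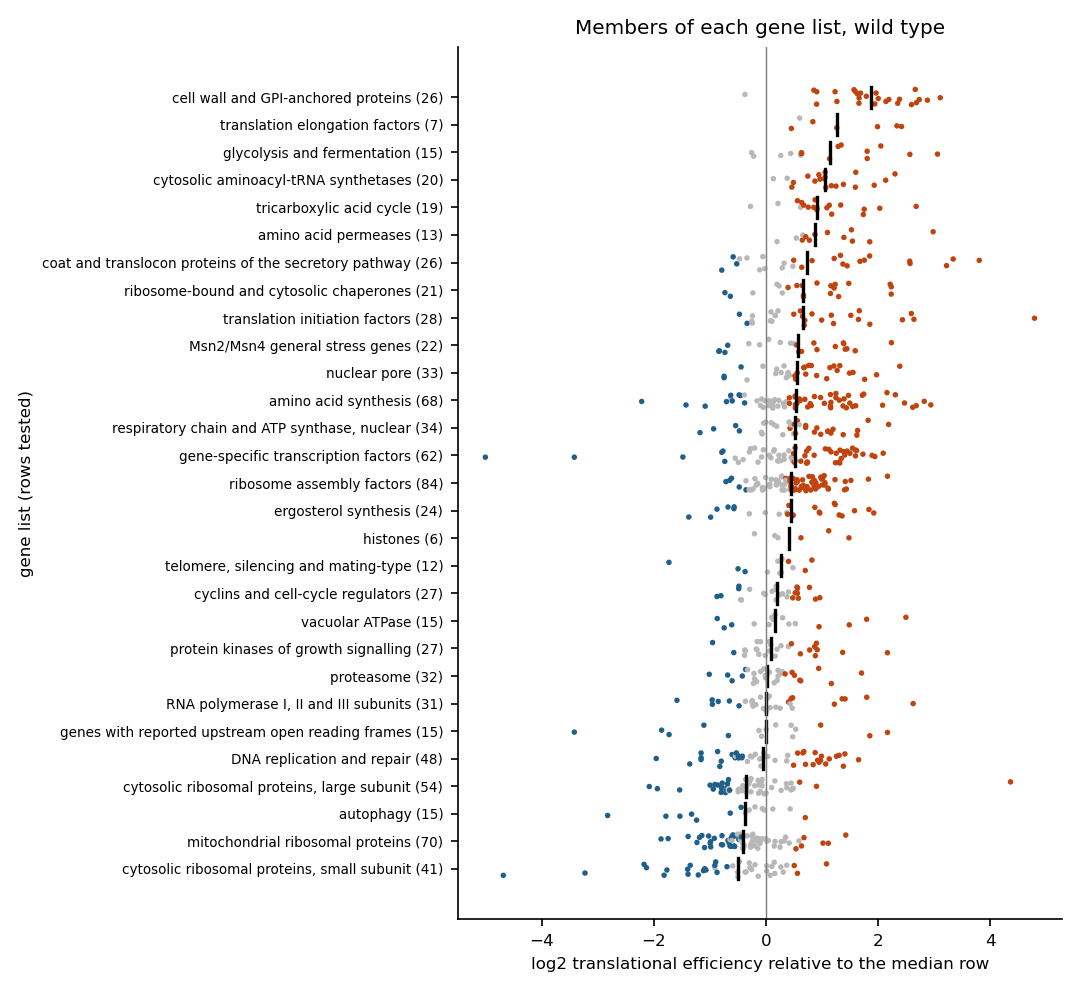
Log2 translational efficiency relative to the median row (x axis) of the tested rows of each gene list (y axis, number tested in brackets), each point a row, orange if called above, blue if called below, grey if not called, with the list median as a black bar. Cell wall proteins are the highest list, at 1.86, and small-subunit ribosomal proteins the lowest, at −0.50.

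Cell wall and GPI-anchored proteins stood highest. Their median was 1.86, and 25 of 26 tested members were called above, 22 of them by 2-fold or more, and none below. ECM33, a GPI-anchored protein needed for wall integrity, had 1416, 1336 and 1340 RPKM of footprints on 246 and 147 RPKM of mRNA, at 2.88 ± 0.21. SED1 and PIR1, structural wall proteins, stood at 2.66 ± 0.14 and 2.68 ± 0.22, and AGA1, the anchor of a-agglutinin, at 2.73 ± 0.24. The exception was CCW12, an abundant structural wall protein with a listed length of 302 bases, at −0.37 ± 0.25 (adjusted p 0.23). Its footprints of 7969, 10516 and 8642 RPKM overlapped its mRNA of 14056 and 10244 RPKM, and it was among the 10 highest rows of both assays.

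Membrane transporters and secretory coats were described by separate lists. Amino acid permeases had a median of 0.87, with 10 of 13 above and none below. PTR2, the di- and tripeptide transporter, was their highest at 2.98 ± 0.41, while its mRNA libraries differed, at 6.59 and 17.1 RPKM. CAN1, the arginine permease, had 40.1, 52.4 and 48.5 RPKM of footprints on 12.5 and 12.8 RPKM of mRNA, at 1.85 ± 0.16. Of the hexose transporters 3 rows could be tested, with HXT2, a high-affinity glucose carrier, at 2.00 ± 0.17 and HXT1, a low-affinity one, not called at 0.58 ± 0.23 (adjusted p 0.055). The coat and translocon proteins of the secretory pathway had a median of 0.73, with 15 of 26 above and 3 below. Beside CHC1, SEC31 and SEC16 these included SEC23, the GTPase-activating subunit of COPII, at 2.57 ± 0.14, and SEC61, the channel of the translocon, at 2.56 ± 0.17. The small coatomer subunit RET3 was their lowest, at −0.79 ± 0.17.

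In central carbon metabolism efficiency differed between steps. Glycolysis and fermentation had a median of 1.13, or 0.64 without merged and overlapping rows, with 10 of 15 rows above and none below. The subunits of phosphofructokinase led: PFK2 had 521, 621 and 634 RPKM of footprints on 87.6 and 59.4 RPKM of mRNA, at 3.06 ± 0.18, and PFK1 stood at 2.56 ± 0.17. PGI1, phosphoglucose isomerase, followed at 2.05 ± 0.18, CDC19, pyruvate kinase, at 1.80 ± 0.27, and the merged row of the pyruvate decarboxylases PDC5 and PDC1 at 1.80 ± 0.23. GPM1, phosphoglycerate mutase, was not called, at −0.26 ± 0.26 (adjusted p 0.41). It stood at 0.08 without mRNA replicate 1 and also at 0.08 with the length trend removed. The tricarboxylic acid cycle had a median of 0.91, with 16 of 19 above and none below, from KGD1, a subunit of the 2-oxoglutarate dehydrogenase complex, at 2.68 ± 0.16, to LSC2, a subunit of succinyl-CoA ligase, at −0.28 ± 0.15 (adjusted p 0.15). The nuclear genes of the respiratory chain and ATP synthase had a median of 0.52, with 18 of 34 above and 4 below. COR1, a core subunit of complex III, was their highest at 2.19 ± 0.14, and QCR6, a small subunit of the same complex, their lowest at −1.18 ± 0.14.

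Amino acid synthesis was mixed. Its median was 0.54, with 40 of 68 rows above and 9 below. MET6, methionine synthase, stood at 2.94 ± 0.28, ARO1, the large enzyme of the shikimate pathway, at 2.82 ± 0.18, CYS3, of cysteine synthesis, at 2.68 ± 0.16, ILV5, of branched-chain synthesis, at 2.61 ± 0.23, and GLT1, glutamate synthase, at 2.47 ± 0.23. ARG8, acetylornithine aminotransferase of arginine synthesis, was the lowest, at −2.22 ± 0.28, with 45.2 and 29.2 RPKM of mRNA and 7.78, 4.42 and 8.98 RPKM of footprints. These groups did not overlap. Ergosterol synthesis likewise ran from ERG5, a sterol desaturase, at 1.92 ± 0.15 to ERG2, a sterol isomerase, at −1.37 ± 0.14, around a median of 0.44.

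The lists of the soluble translation machinery had medians above the median row, and the ribosomal lists had medians below it. Elongation factors had a median of 1.26, with 6 of 7 rows above. The merged row of EFT2 and EFT1, both encoding elongation factor 2, had 1934, 2285 and 2219 RPKM of footprints on 492 and 346 RPKM of mRNA, at 2.42 ± 0.19. YEF3, the fungal elongation factor 3, stood at 1.99 ± 0.24 and NEW1, a related ATPase, at 2.33 ± 0.14. The merged row of TEF2 and TEF1, encoding elongation factor 1A, was not called, at 0.60 ± 0.28 (adjusted p 0.087). Cytosolic aminoacyl-tRNA synthetases had a median of 1.05, with 18 of 20 above and none below, led by FRS2, a subunit of the phenylalanine enzyme, at 2.30 ± 0.12, and CDC60, the leucine enzyme, at 2.13 ± 0.15. HTS1, the histidine enzyme, was the lowest of them at 0.13 ± 0.14 (adjusted p 0.44). Initiation factors had a median of 0.67, with 17 of 28 above and 2 below. After DED1 came PAB1, the poly(A)-binding protein, at 2.64 ± 0.15, NIP1, a subunit of eIF3, at 2.59 ± 0.16, EAP1, which binds eIF4E, at 2.43 ± 0.20, and TIF4631, the eIF4G scaffold, at 1.85 ± 0.12. CDC33, the cap-binding protein eIF4E itself, was called below, at −0.47 ± 0.16 (adjusted p 0.027). That call was lost without footprint replicate 2 or 3 or mRNA replicate 1 (adjusted p 0.11, 0.084 and 0.0996). Chaperones had a median of 0.67, with 15 of 21 above and 2 below, and ribosome assembly factors 0.45, with 47 of 84 above and 5 below.

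Cytosolic ribosomal proteins took a smaller share of footprints than of mRNA. Large-subunit genes held between 10.3 and 13.0% of the listed footprint reads and 17.1 and 18.8% of the listed mRNA reads. Small-subunit genes held 6.51 to 8.0% and 12.3 to 14.1%. In glycolysis the order was opposite, at 17.5 to 18.9% of footprints and 11.4 to 13.4% of mRNA. Elongation factors also had more of the footprints, 8.11 to 8.74% against 5.38 to 6.66%. In none of these 4 groups did the libraries of the assays overlap.

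Per row the medians of both ribosomal lists were below the median row. The large subunit had a median of −0.35, with 3 of 54 rows above and 17 below, and the small subunit −0.50, with 3 of 41 above and 17 below. For the large subunit the share called below was thus close to the 30.4% over all rows. With the length trend removed the medians were −0.12 and −0.30. Without the merged rows, 23 and 15 in number, and overlapping rows, the medians were −0.67 and −0.91. The medians over all rows moved with the mRNA library: against mRNA replicate 1 the large subunit stood between −0.73 and −0.42 and against replicate 2 between −0.27 and 0.13, and the small subunit between −0.81 and −0.66 and between −0.49 and −0.11. The lowest members had short listed lengths, but so did RPL39, the highest of the large subunit, at 4.36 ± 0.44 and 56 bases. RPL31B and RPL31A, each with a listed length of 242 bases, stood at −2.08 ± 0.32 and −1.94 ± 0.21, and RPL37B, of 167 bases, at −1.54 ± 0.20. RPS29A and RPS29B, of 76 and 83 bases, stood at −2.17 ± 0.33 and −1.82 ± 0.36. RPS25A, of 242 bases, was among the 10 highest rows by mRNA, at 14436 and 6435 RPKM, with 2142, 2246 and 2026 RPKM of footprints and an efficiency of −2.13 ± 0.32. RPL10, of the large subunit, was not called, at −0.03 ± 0.24 (adjusted p 0.92), and it stood at 0.28 without mRNA replicate 1. RPL22A stood at −0.78 ± 0.28 (adjusted p 0.038), a call lost without footprint replicate 1, 2 or 3 (adjusted p 0.061, 0.079 and 0.092) and without mRNA replicate 1 (−0.30, adjusted p 0.21). The merged row of RPS11B and RPS11A was the highest of the small subunit, at 1.08 ± 0.20.

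Mitochondrial ribosomal proteins, made in the cytosol for import, had a median of −0.41, with 6 of 70 rows above and 27 below, and lay below 0 in every library pair. MRPL37, at a listed length of 218 bases, was the lowest at −1.87 ± 0.36, and RSM19, of 176 bases, stood at −1.74 ± 0.25. MRPL9, MRPS18 and MRP1 lay between −1.39 and −1.18. MRPL4, of the large subunit, was the highest at 1.42 ± 0.17. Autophagy was the other low list, at a median of −0.37, with 1 of 15 rows above and 7 below. ATG12, a ubiquitin-like protein that is joined to Atg5, had 17.6 and 20.2 RPKM of mRNA and 4.68, 3.46 and 5.92 RPKM of footprints, at −1.78 ± 0.21. ATG17 and ATG31, which form the scaffold of starvation-induced autophagy, stood at −1.53 ± 0.22 and −1.33 ± 0.26, and ATG19, a cargo receptor, at −1.24 ± 0.16. ATG12 and ATG17 had footprint means of 4.69 and 2.62 RPKM, under 5 RPKM, and passed the filter only through their mRNA. In footprint replicate 3, ATG17 and ATG31 held 5 and 4 reads. ATG18, a protein that binds phosphoinositides, was the one called above, at 0.70 ± 0.21 (adjusted p 0.019), a call lost without footprint replicate 2 (adjusted p 0.055) and without mRNA replicate 1 (adjusted p 0.14).

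Transcription factors, general stress genes and growth kinases had members on both sides, with more called above than below in each list. Gene-specific transcription factors had a median of 0.51, with 32 of 62 above and 6 below, HAC1 and GCN4 being their lowest. MSN4, an activator of stress genes, was the highest, at 2.09 ± 0.20. Its mRNA of 2.78 and 2.26 RPKM was under 5 RPKM, as was that of SEC16, PRY3 and AGA1, and such rows passed the filter only through their footprints. It was followed by NDD1, a mitotic activator, at 1.94 ± 0.22, and RAP1, which activates ribosomal protein genes and binds telomeres, at 1.89 ± 0.15. The general stress genes targeted by Msn2 and Msn4 had a median of 0.57, with 12 of 22 above and 4 below, and YGP1, a secreted glycoprotein, was highest at 2.24 ± 0.20. SCH9, a kinase downstream of TORC1, stood highest of the growth kinases, at 2.16 ± 0.14. The median of that kinase list, 0.09, changed sign with the length trend removed (−0.06) and under a filter of 20 RPKM (−0.05). Of the 54 meiosis and sporulation genes 1 passed the filter, MND2, at 0.40 ± 0.16 (adjusted p 0.059). MND2 encodes a subunit of the anaphase-promoting complex.

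Among those tested, genes with reported upstream reading frames were not low as a list. Of the listed genes 2, RCK1 and PET111, did not pass the filter. RCK1 was at 0.524 RPKM or less in every library. PET111 had 6.43 and 3.97 RPKM of mRNA but 1.41, 1.73 and 1.02 RPKM of footprints, so low footprints kept it out. The median of the 15 tested was 0.00, with 3 above and 5 below. Below lay GCN4, then CBS1, a mitochondrial translation activator, at −1.86 ± 0.40, DCD1, dCMP deaminase, at −1.73 ± 0.17, HOL1, a polyamine transporter, at −1.11 ± 0.16, and PPR1, an activator of pyrimidine genes, at −0.67 ± 0.17. PPR1, with a footprint mean of 3.87 RPKM, passed the filter only through its mRNA. Above lay SCH9, TIF4631 and LEU4, the latter an enzyme of leucine synthesis, at 0.97 ± 0.15. CPA1, whose leader peptide stalls ribosomes when arginine is plentiful, stood at 0.00 ± 0.17 with 31.7, 28.8 and 32.3 RPKM of footprints on 36.6 and 27.5 RPKM of mRNA. CLN3, YAP1, INO2, HAP4, SCO1 and CAD1 were not called either, at −0.13 to 0.53. The calls of CBS1 and PPR1 were lost without mRNA replicate 1 (adjusted p 0.054 and 0.077).

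In 15 of the 29 lists, footprint levels of the members lay closer together than their mRNA levels in every library, and these lists were complexes and other groups alike. The log2 levels of the 32 proteasome genes had a standard deviation of 0.26, 0.29 and 0.28 in the footprint libraries and 0.60 and 0.55 in the mRNA libraries. That made the proteasome the tightest list at either level, while its efficiencies ran from −1.01 ± 0.13 for PRE9, a core subunit, to 1.70 ± 0.14 for RPN1, the largest subunit of the regulatory base. PRE9 had more mRNA (339 and 327 RPKM) than RPN1 (55.0 and 47.4 RPKM), but their footprints were alike, at 176, 154 and 151 RPKM for PRE9 and 151, 172 and 168 RPKM for RPN1. PUP2, another core subunit, had 162, 167 and 167 RPKM of footprints on 283 and 266 RPKM of mRNA, so its footprints fell in the same range. 

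For the RNA polymerase subunits the standard deviation was 1.2 and 1.21 in mRNA and 0.83 to 0.91 in footprints. There RPO21, the largest subunit of RNA polymerase II, had 15 and 12.3 RPKM of mRNA and an efficiency of 2.62 ± 0.16, and RPC10, a small subunit shared by all of the polymerases, had 528 and 258 RPKM of mRNA and −1.59 ± 0.35. The call of RPC10 was lost without mRNA replicate 1 (adjusted p 0.059). For the vacuolar ATPase the spread was 1.92 and 1.80 in mRNA and 1.56 to 1.59 in footprints. VMA1, its catalytic subunit, whose precursor also carries an intein, stood at 2.49 ± 0.21 and VMA8, a stalk subunit, at −0.87 ± 0.18. In mitochondrial ribosomal proteins it was 0.90 and 0.72 against 0.53 to 0.56, and in gene-specific transcription factors, which form no complex as a group, 1.3 and 1.2 against 0.93 to 0.98. The footprint spread was the larger in every library for 6 lists and overlapped the mRNA spread for 8, among them the large ribosomal subunit. The 6 included small-subunit ribosomal proteins, at 1.18 and 0.98 in mRNA and 1.41 to 1.56 in footprints, and amino acid synthesis, at 1.48 and 1.51 against 1.81 to 1.89. Over all 4326 rows the footprint spread was the larger, at 2.03 to 2.07 against 1.98 and 1.87. No test was made of these spreads, and how far noise and length effects of the mRNA libraries add to them was not tested.

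**Figure D5:**
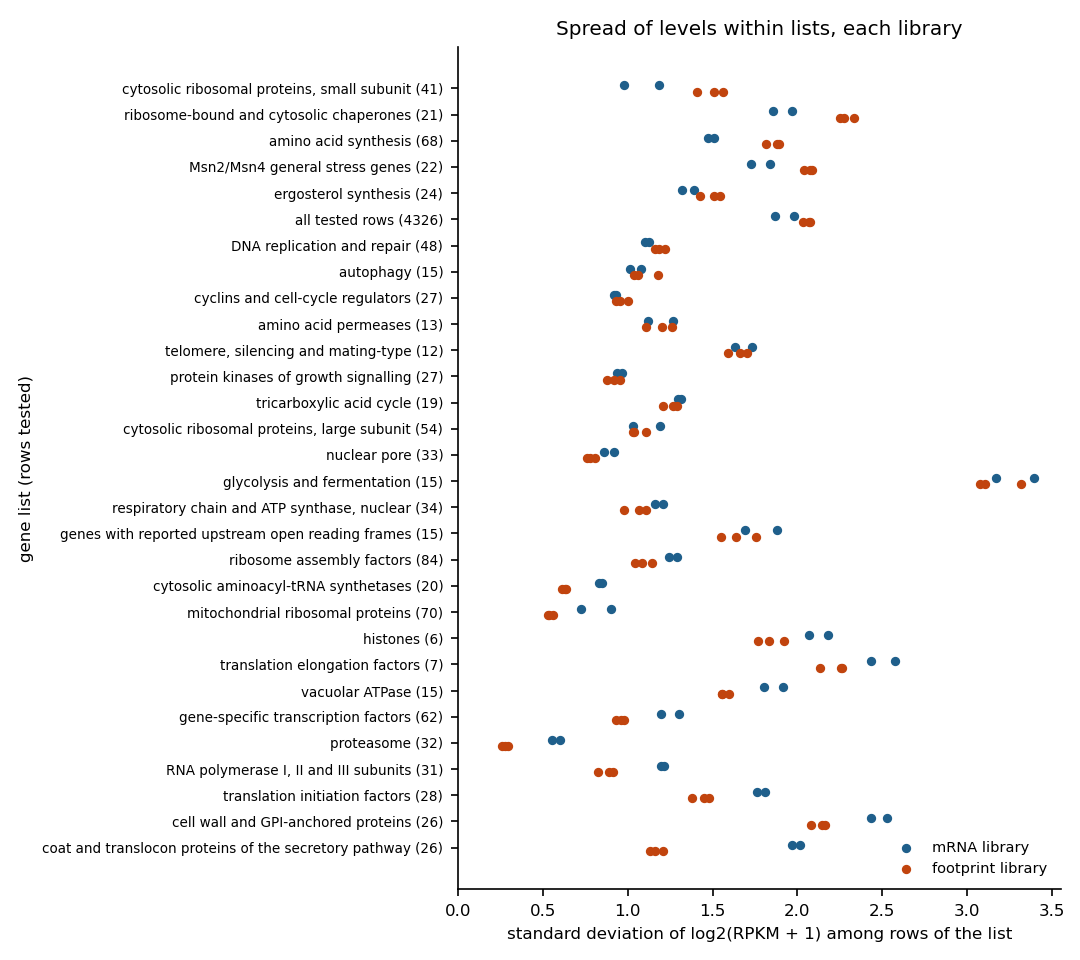
Standard deviation of log2(RPKM + 1) among the tested rows of each gene list (x axis, lists on the y axis with the number of rows), a point for each mRNA library (blue) and each footprint library (orange). For the proteasome the footprint libraries lie at 0.26 to 0.29 and the mRNA libraries at 0.55 and 0.60, while for the small ribosomal subunit the footprint libraries lie higher.

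Lists close to the median row held members on both sides. The nuclear pore (median 0.56, 19 of 33 above and 3 below) and histones (0.42, 3 of 6 above and none below) still leaned up. Cyclins and cell-cycle regulators stood at 0.19 (9 of 27 above, 4 below), the vacuolar ATPase at 0.16 (4 of 15 above, 3 below), RNA polymerase subunits at 0.01 (8 of 31 above, 6 below), which was −0.07 without footprint replicate 1 and −0.06 under a filter of 20 RPKM, and the proteasome at 0.02 (8 of 32 above, 5 below), which was −0.05 under a filter of 20 RPKM. DNA replication and repair, at −0.06, had 18 of 48 rows above and 16 below, and its median was 0.05 with no filter and 0.02 with 1 scaling across both assays. Its members ran from RFA1, a subunit of the single-strand binding protein, at 1.65 to RAD57, a helper of strand exchange, at −1.96. RAD57, with a footprint mean of 3.94 RPKM, passed the filter only through its mRNA. Telomere, silencing and mating-type genes had a median of 0.26, or −0.30 with the length trend removed, with 3 of 12 above and 3 below.

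Within most lists longer genes had the higher efficiency. Of 27 lists with at least 12 single-gene rows, 24 had a positive correlation of efficiency with listed length across members and 3 a negative one. The strongest were the coat and translocon proteins (Spearman 0.83 over 25 rows), glycolysis and fermentation (0.80 over 12) and initiation factors (0.73 over 27). The negative ones were amino acid permeases (−0.25 over 13), chaperones (−0.15 over 18) and cyclins and cell-cycle regulators (−0.03 over 27). The permeases are all of nearly 1 size, from 1625 to 1892 bases.

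Rows ranked by either assay alone are given as a description, since a high mRNA level lowers the ratio and a high footprint level raises it. The 10 rows highest in mRNA included the ribosomal proteins RPS12 (−1.09 ± 0.32), RPS25A, RPP1A (−0.91 ± 0.28, a call lost without footprint replicate 2 or 3 or mRNA replicate 1 at adjusted p 0.062, 0.054 and 0.11), RPL25 (−0.49 ± 0.28, not called) and RPL10, and the glycolytic FBA1 (0.62 ± 0.25, not called) and PGK1 (0.44 ± 0.27, not called). The 10 highest in footprints held no ribosomal protein. They held CDC19, with 11531, 12726 and 12960 RPKM of footprints on 4749 and 2816 RPKM of mRNA, the merged row of TDH3, TDH2 and TDH1, encoding glyceraldehyde-3-phosphate dehydrogenase, at 1.34 ± 0.25, and that of the enolases ENO1 and ENO2 at 1.29 ± 0.23. The top 10 rows took 23.0 to 25% of listed footprint reads and 16.3 and 19.5% of listed mRNA reads.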

How the data were processed

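Deposited tables of 5 wild-type libraries of 16 were used, and their members and the gene lists were chosen with earlier results of these data known. Per the file headers, the authors deposited RPKM per open reading frame with a length. Reads were aligned with Bowtie 1.1.2 to build R64, per the submitters' processing notes; for the counting rule, nothing was given in the sources used here. Listed length equalled the RefSeq coding length less 100 bases for 5406 of 5454 matched single-gene rows. Values in low rows fell on whole-read steps (tolerance 0.05), which gave the library totals; footprint replicate 1 and mRNA replicate 2 were means of 2 runs.

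RPKM was scaled by trimmed means of M values within each assay (30% trimmed on fold, 5% on level), and scaled values are printed. The design provided for a count test had counts been deposited, and since RPKM was found, limma 3.58.1 (statmod 1.5.0, R 4.3.3) was used on log2(RPKM + 1), trended and robust, footprint minus mRNA, centred on the median row (a shift of −0.04). Efficiencies are on that log2(RPKM + 1) scale, which understates differences of low rows. A row was called at adjusted p under 0.05 (Benjamini-Hochberg, 4326 rows); 11 mitochondrially encoded rows were left out. On simulated data 87 of 100 2-fold and 96 of 96 tested 4-fold differences were recovered, with 6 false calls among 4191. Both simulated assays were drawn from the same mRNA levels, with a fixed scatter, no length trend and few changed rows. The real libraries differ in these respects, so the simulation does not give their rate of false calls.

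Named genes are the 15 highest and 15 lowest called single-gene rows with no overlap between libraries and at least 20 RPKM in the higher assay, the highest and lowest member of each list with up to 4 more for lists described at length, the genes with reported upstream reading frames, HAC1, MFA1, MFA2, RPL22A, CAN1 and TOR1, and the 10 rows highest in each assay. TOR1 did not pass the filter. Levels of merged or overlapping genes are uncertain. Alternatives were other pseudocounts, filters and scalings, all 16 libraries, a replicate block, removal of the length trend, removal of merged rows and leaving out each library.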

Additional observations from a re-analysis of the deposited data

How the results depend on the processing

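Counts of called rows, the spread of efficiency, its correlations over all rows, list medians and named genes were recomputed under 15 other settings. The correlation with length is not given with the length trend removed. Medians by length, level and codon adaptation, the bases at −3, read shares, spreads and length correlations within lists, and strain correlations were not recomputed. Among the values of named genes under these settings, 2300 kept their direction and side of the threshold, 39 lost the call, 32 gained one and 21 changed sign. Sign changes affected 10 genes, none of which was called: CPA1 (−0.066 with the filter at 20 RPKM), CAD1 (0.028 with no filter), RPL10 (0.075 with no filter, 0.047 with 1 scaling across both assays), and, with the length trend removed, HTS1 (−0.016), GPM1 (0.079), HTA2/HTA1 (0.13), BAP3 (−0.035), CLN3 (−0.024), SCO1 (0.17), CAD1 (0.024) and RPL10 (0.30). Over the fits that leave out 1 library, HTS1 ran from −0.047 to 0.31, GPM1 from −0.59 to 0.085, RPL10 from −0.34 to 0.28, CAD1 from −0.21 to 0.051, CPA1 from −0.22 to 0.23 and TPI1 from −0.051 to 0.58. GPM1 and RPL10 turned positive without mRNA replicate 1, CAD1 without mRNA replicate 2, and HTS1 and TPI1 turned negative without mRNA replicate 2. CPA1 turned negative without footprint replicate 1 or 3 or mRNA replicate 2. GPM1 was called below without mRNA replicate 2 (limma adjusted p 0.0271).

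With the filter at 20 RPKM, 801 rows were called above and 753 below, or 400 and 279 at 2-fold, because only 2561 rows were tested. The standard deviation of efficiency became 1.04 with a pseudocount of 0.25 RPKM, 0.88 with 4 RPKM, 1.06 with no filter and 0.91 with the length trend removed, and the interquartile range 1.06 with 4 RPKM and 1.08 with the trend removed. The correlation with length was 0.48 with the filter at 20 RPKM, 0.32 with no filter, and 0.23, 0.32, 0.46 and 0.46 in the level quintiles that moved. The correlation with level was 0.063 with no filter, 0.14 with the length trend removed, −0.15 with the mRNA replicates swapped and −0.13 with the same mean on both axes (cause not tested). It needs both mRNA libraries, so leaving 1 out gave no value.

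With the length trend removed, list medians became −0.21 for DNA replication, 0.19 for RNA polymerases, −0.58 for autophagy, 0.59 for coats, 0.11 for cyclins, 0.70 for synthetases, 0.29 for transcription factors, 0.81 for glycolysis, 0.73 for histones, −0.13 for mitochondrial ribosomal proteins, 0.27 for the nuclear pore, 0.24 for the proteasome, −0.059 for kinases, 0.72 for the respiratory chain, 0.32 for assembly factors, 0.56 for chaperones, −0.30 for telomere genes, 0.60 for initiation factors and 1.09 for the tricarboxylic acid cycle. With no filter they became 0.049 for DNA replication, 0.11 for RNA polymerases, 0.30 for cyclins, 0.62 for transcription factors, 0.66 for the nuclear pore, 0.13 for the proteasome, 0.19 for kinases, 0.56 for assembly factors, 0.77 for chaperones and 0.77 for initiation factors. With the filter at 20 RPKM they became −0.14 for DNA replication, 0.78 for stress genes, −0.51 for autophagy, 1.62 for the cell wall, 0.59 for coats, 1.11 for transcription factors, 0.20 for genes with upstream frames, −0.050 for the proteasome, −0.051 for kinases, 0.38 for assembly factors, 0.84 for chaperones and 0.60 for initiation factors. With 1 scaling across both assays they became 0.017 for DNA replication, 0.27 for cyclins, 0.10 for the proteasome, 0.53 for assembly factors, 0.75 for chaperones and 0.75 for initiation factors. A pseudocount of 4 RPKM gave −0.23 for autophagy and 0.39 for transcription factors. Without merged and overlapping rows the large ribosomal subunit stood at −0.67, the small at −0.91, glycolysis at 0.64 and histones at 0.82. The causes of these moves were not tested.

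Deviations of equally numbered libraries correlated at −0.02 across 4326 rows, the 1 value that 2 shared numbers give. It gave no sign that replicate numbers pair the assays, but a single correlation cannot settle whether they do. With the replicate block 1333 rows were called above and 1317 below, 93.4% of called rows were still called, DNA replication had a median of −0.0043 and CPA1 stood at −0.042.

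Leaving out each library in turn gave 1181 to 1317 rows above and 919 to 1265 below, and 75.7% of called rows were still called without mRNA replicate 1, the lowest share. The interquartile range ran from 1.19 to 1.31. List medians ran from −0.10 to −0.0059 for DNA replication, −0.07 to 0.037 for RNA polymerases, 0.57 to 0.75 for stress genes, 0.77 to 1.25 for permeases, 0.41 to 0.74 for amino acid synthesis, 0.35 to 0.58 for ergosterol synthesis, 0.048 to 0.24 for kinases, 0.078 to 0.34 for telomere genes, 0.85 to 1.09 for the tricarboxylic acid cycle, 0.036 to 0.55 for the vacuolar ATPase, 0.47 to 0.61 for transcription factors, −0.044 to 0.13 for genes with upstream frames, 0.0014 to 0.087 for the proteasome and 0.42 to 0.52 for assembly factors. With 1 mRNA library the lone library is assumed to vary like the others. Depth limits the low genes: at 5 RPKM a short row holds few reads in the shallowest footprint library.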
